A study of Mus musculus with 12 samples.

Results

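The genes that write, erase and read DNA methylation were followed in cultured primary neurons of ICR (CD-1) mouse embryo brain, an outbred stock, after 48 h of antidepressant exposure. They were Dnmt1, Dnmt3a, Dnmt3b, Tet1, Tet2, Tet3, Mbd1, Mbd2, Uhrf1 and Gadd45b, 10 of the 22180 genes named on the array. Each was chosen by its gene symbol and had 1 probe set carrying that symbol alone, and all 10 lay above the filter on dim signal that left 17467 genes for testing. Drugs were added at day in vitro 3 and the cultures were harvested at day in vitro 5. The groups were amitriptyline at 5 µM, citalopram at 10 µM, duloxetine at 0.1 µM, imipramine at 5 µM, mirtazapine at 50 µM and control, with 2 arrays in each of the 6 groups. The labels do not state a vehicle for the control group. Nor do they say whether the 2 replicates of a group came from separate cultures or litters, and the p-values cover the spread among these samples alone, which may be technical. The title of the series asks about epigenetic effects of antidepressants. The arrays measured transcript levels of the enzymes and binding proteins and did not measure DNA methylation.

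Methyl groups are placed on cytosine by DNA methyltransferases. Dnmt3a and Dnmt3b encode the enzymes that methylate new sites, and Dnmt1 encodes the enzyme that copies the pattern onto the daughter strand when DNA is replicated. Uhrf1 encodes a protein that recognises hemimethylated DNA behind the replication fork and recruits the Dnmt1 enzyme there. The Tet enzymes oxidise methylcytosine to hydroxymethylcytosine, which is abundant in neurons, and the Gadd45b protein has been linked to activity-induced demethylation of growth factor genes in the mouse hippocampus. Mbd1 and Mbd2 encode proteins that bind methylated CpG and recruit repressor complexes.

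All 12 neuron markers examined, Tubb3 and Map2 among them, lay above the median probe set. Markers of other cells were tested where a probe set carrying their symbol alone lay above the filter. These were 11 of 12 astrocyte, 9 of 10 oligodendrocyte lineage and 9 of 10 radial glia and progenitor markers. So were 9 of 10 microglia, 6 of 8 endothelial and 7 of 8 fibroblast and pericyte markers. The missing astrocyte, oligodendrocyte and radial glia markers had no such probe set. Above the median probe set lay 10 of 11 astrocyte, 9 of 9 oligodendrocyte lineage and 8 of 9 radial glia and progenitor markers tested. For microglia it was 5 of 9, for endothelium 2 of 6 and for fibroblasts and pericytes 6 of 7. Duloxetine replicate 2 and mirtazapine replicate 2 stood apart along the first principal component, at 32.6 and 36.4, where the highest of the other arrays was at 3.94. For the median gene, the 95% interval of a difference between a drug and control had a half-width of 0.282 on the log2 scale.

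Uhrf1 was the only one of the 10 genes that passed the test against control for any drug, and it fell under mirtazapine. Its log2 RMA values were 7.40 and 7.48 on the mirtazapine arrays, against 8.0 and 7.94 on the control arrays. That is a log2 difference of −0.53 ± 0.095 (SE, n = 2 arrays each; 95% interval −0.741 to −0.319), or 1.44-fold lower under mirtazapine (limma, adjusted p = 0.0278). Of all genes tested, 1.74% were called under mirtazapine in either direction and 1.47% were called lower.

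The other drug groups also lay below control for Uhrf1, without passing. The values were 7.53 and 7.54 under amitriptyline, 7.61 and 7.47 under citalopram, 7.74 and 7.86 under duloxetine and 7.60 and 7.45 under imipramine. All 10 drug arrays were therefore below both control arrays, which held for 3.67% of all genes tested. The log2 differences from control were −0.435 for amitriptyline (limma adjusted p = 0.152), −0.43 for citalopram (adjusted p = 0.399), −0.17 for duloxetine (adjusted p = 0.525) and −0.445 for imipramine (adjusted p = 0.19). Their 95% intervals lay below 0 for amitriptyline (−0.646 to −0.224), citalopram (−0.641 to −0.219) and imipramine (−0.656 to −0.234), and spanned 0 for duloxetine (−0.381 to 0.041).

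Averaged over the 5 drugs, Uhrf1 was at a log2 value of 7.568, against 7.97 in control, a difference of −0.402 ± 0.073 (SE; 95% interval −0.566 to −0.238) that did not pass (limma adjusted p = 0.0766). In that comparison 0 of the 10 genes were called, and 0.0515% of all genes were. At an unadjusted p under 0.05 it was 1 of the 10, against 8.93% of all genes. Ordered by mean, Uhrf1 was highest in control, then under duloxetine, citalopram, amitriptyline, imipramine and mirtazapine. Control and duloxetine differed by less than the 95% half-width of a difference (0.211), as did each neighbouring pair from citalopram down to mirtazapine, while the step from duloxetine to citalopram (0.26) was wider. The F test across the 5 drugs did not call Uhrf1 (adjusted p = 0.475, unadjusted p = 0.0319).

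**Figure D1:**
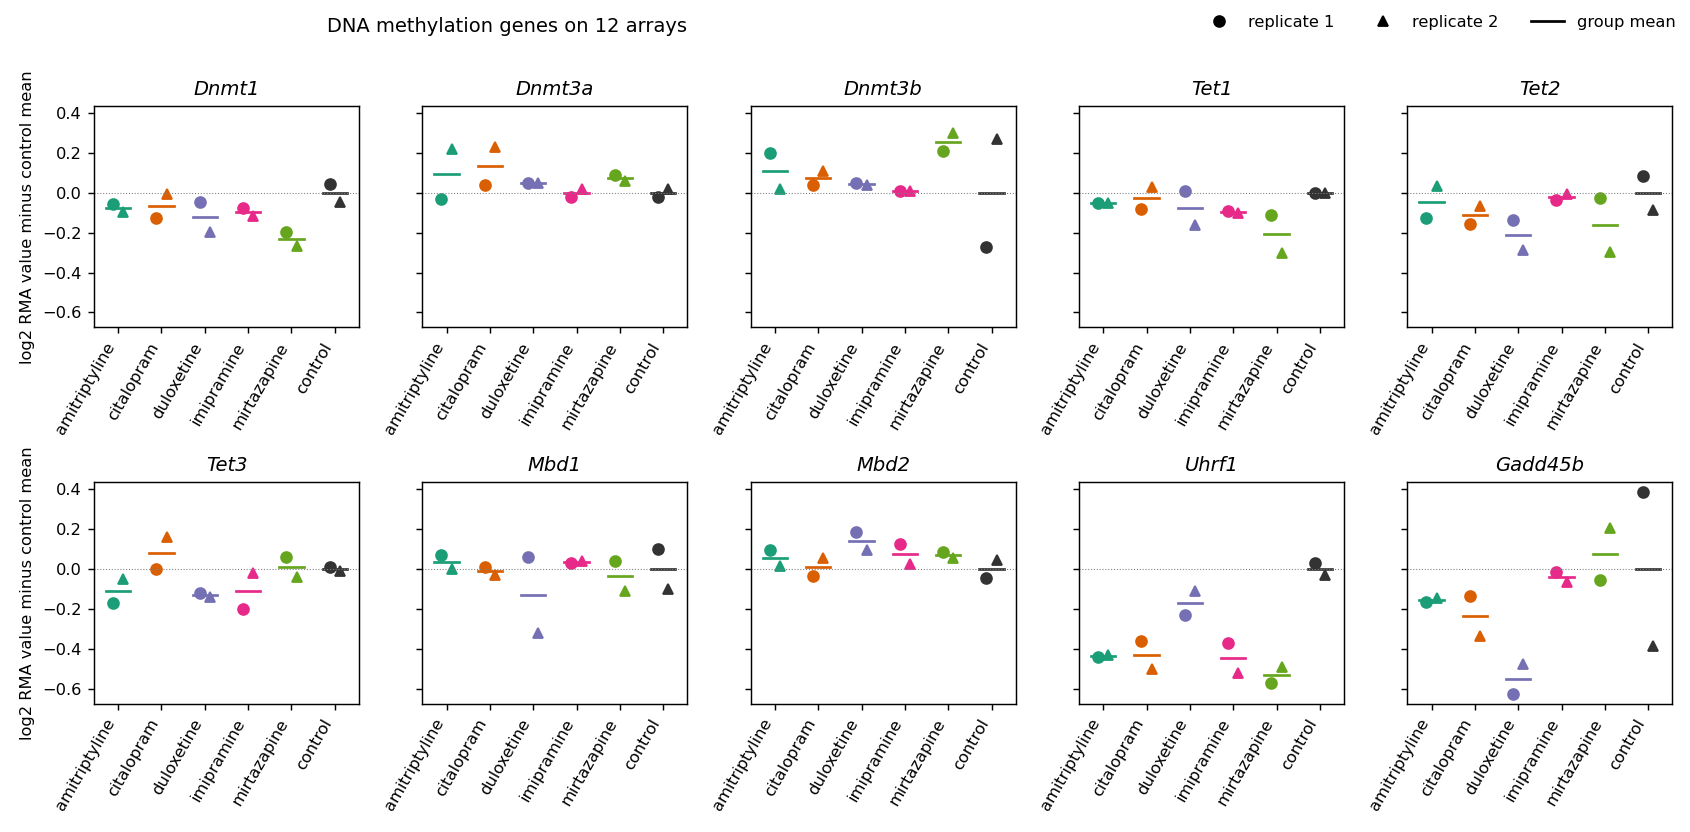
Each panel shows 1 gene on the 12 arrays, as the log2 RMA value minus the mean of the 2 control arrays, with circles for replicate 1, triangles for replicate 2 and bars for group means. For Uhrf1 the 10 drug arrays lie between −0.57 and −0.11, all below both control arrays; the control arrays of Dnmt3b and Gadd45b lie 0.54 and 0.77 apart.

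The call on Uhrf1 under mirtazapine was close to its threshold. Among 21 other settings, 10 ended it, with adjusted p from 0.0521 to 0.189, and the difference itself stayed between −0.57 and −0.49. The arrays whose removal ended it were control replicate 1 (adjusted p = 0.189), control replicate 2 (0.0903), mirtazapine replicate 2 (0.127) and any amitriptyline or citalopram array (0.059 each), while without both arrays that stand apart it was kept (difference −0.57, adjusted p = 0.0329). With array weights Uhrf1 was not called under mirtazapine (adjusted p = 0.0882) but was called under amitriptyline (adjusted p = 0.0417) and imipramine (adjusted p = 0.0454).

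Uhrf1 and Dnmt1 act at replicating DNA, so their values are given beside those of S phase and mitosis genes on the same arrays. Of 27 S phase genes tested, which serve DNA replication, 25 were below control under mirtazapine (median log2 difference −0.345), and 2 were called lower. Among 17 mitosis genes all 17 were below control under mirtazapine (median −0.66), and 9 were called lower. Over all genes the median under mirtazapine was −0.035, with 55.1% below control and 1.47% called lower. Under the other drugs the medians of the S phase genes were −0.29 for amitriptyline, −0.20 for citalopram, −0.20 for duloxetine and −0.18 for imipramine, and those of the mitosis genes were −0.565, −0.475, −0.18 and −0.525 in the same order, with 0 called in each.

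Duloxetine, the drug under which Uhrf1 lay nearest to control, was also the one under which mitosis genes lay nearest. Relative to the control mean, the mitosis mean was −0.009 on duloxetine replicate 1 and −0.396 on replicate 2. Uhrf1 was at 7.74 and 7.86 on these arrays, so it lay nearer to control on the array with the lower mitosis mean. Over the 12 arrays Uhrf1 correlated with the mean of the mitosis genes at r = 0.834, and over the 10 arrays without both that stand apart at r = 0.877. For the S phase genes these values were 0.71 and 0.861. After each group's mean was subtracted, the correlation of Uhrf1 was −0.554 with the mitosis genes and −0.478 with the S phase genes. The duloxetine arrays weighed most in the value for the mitosis genes, as their mitosis means lay furthest apart and replicate 2 stands apart. Between replicates, Uhrf1 and the mitosis mean went the same way in amitriptyline, citalopram and control. They went opposite ways in duloxetine, imipramine and mirtazapine. All points share the normalization of these arrays.

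Among markers of other cells, those of astrocytes, radial glia and oligodendrocytes were mostly below control under mirtazapine, and those of microglia and endothelium mostly above. Of all genes tested, 55.1% were below control under mirtazapine and 1.47% were called lower. Of 11 astrocyte markers, 10 were below control under mirtazapine and 3 were called lower, and their summed linear signal was 8306 to 8648 on the mirtazapine arrays, against 9992 to 10820 on the control arrays. Of 9 radial glia and progenitor markers, 8 were below control and 1 was called lower, with a summed signal of 14610 to 15030 under mirtazapine, against 17500 to 17570 in control. Of 9 oligodendrocyte lineage markers, 8 were below control and 1 was called lower, with a summed signal of 2907 to 3076 under mirtazapine, against 3675 to 5224 in control. Of 9 microglia markers, 7 were above control and 2 below (median 0.215), and of 6 endothelial markers 5 were above and 1 below (median 0.188), with 0 called in each list. The fibroblast and pericyte list had 4 of 7 markers above control and 3 below, 1 of them called lower. Neuron markers were also mostly below control under mirtazapine, 10 of 12 with 2 above (median −0.103), and 0 were called. Their summed signal was 39180 to 42590 under mirtazapine, against 41810 to 44640 in control. Under amitriptyline and imipramine all 11 astrocyte markers were below control, under citalopram 10 and under duloxetine 3, with 0 called for each of these drugs. Uhrf1 correlated with the astrocyte list at r = 0.846 over 12 arrays and 0.819 over 10, with the radial glia list at 0.755 and 0.885, with the fibroblast and pericyte list at 0.802 and 0.793 and with the oligodendrocyte list at 0.693 and 0.638. These values are of the size of those for the mitosis and S phase genes. With the microglia list r was −0.074 over 12 arrays, with the endothelial list −0.035 and with the neuron list 0.378. The part of these cells in the values of Uhrf1 was not tested. In RNA of whole cultures, fewer cells of a type and less RNA per cell cannot be told apart.

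**Figure D2:**
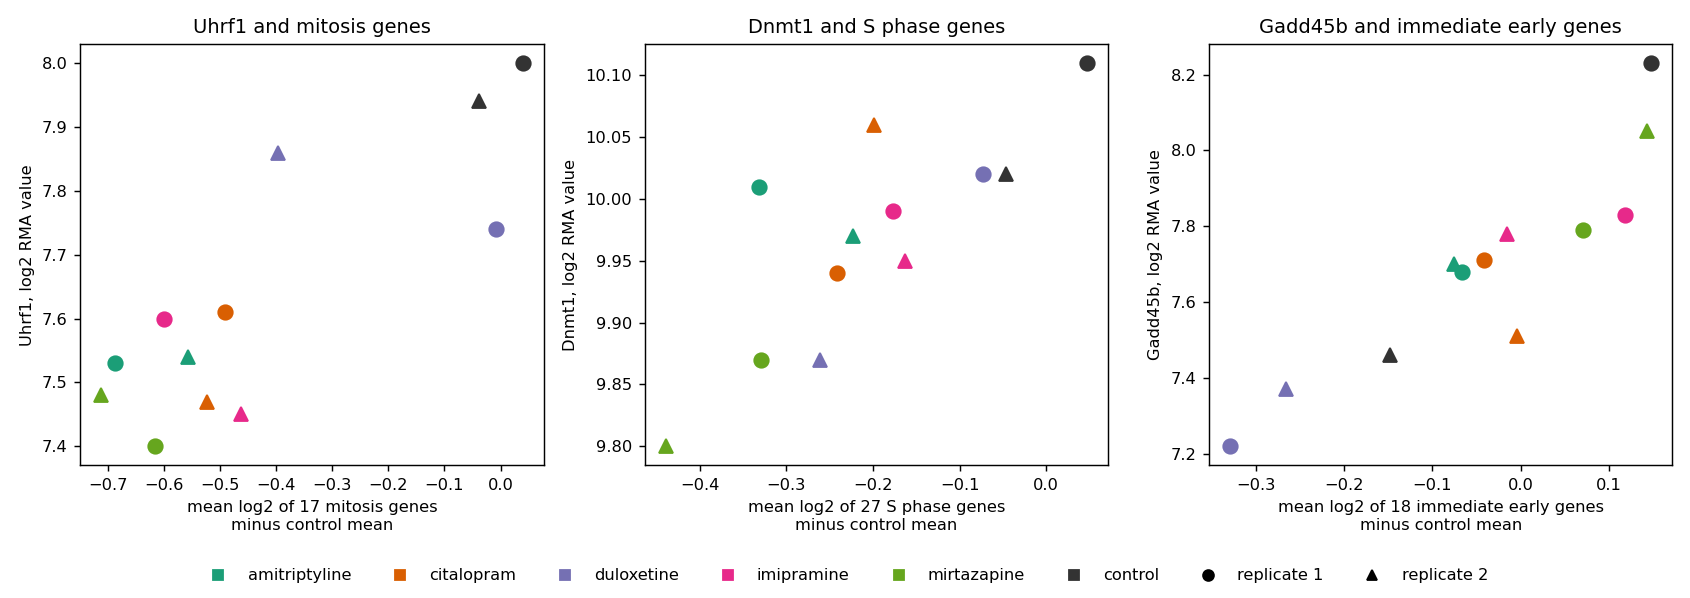
Each point is 1 array, coloured by group, with circles for replicate 1 and triangles for replicate 2. The x axes give the mean log2 value of a gene list minus its control mean (17 mitosis genes, 27 S phase genes, 18 immediate early genes) and the y axes the log2 RMA value of Uhrf1, Dnmt1 and Gadd45b. The control and duloxetine arrays have the 4 highest Uhrf1 values and the 4 highest mitosis means. The order of the other 8 arrays differs between both measures. Gadd45b runs with the immediate early genes over the 12 arrays (r = 0.91). Between the replicates of amitriptyline and of citalopram both went opposite ways.

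The promoters of Uhrf1 and Dnmt1 are shown because both genes serve replication and both have a start site with letters of the E2F motif, which E2F factors bind at many S phase genes. The windows run from 250 bases before to 50 bases after a RefSeq start site (GRCm38.p6), read 5′ to 3′ on the gene's strand, with the motif in capitals. For Uhrf1 the window is chr17:56304063-56304362 on the plus strand, and for Dnmt1 it is chr9:20952574-20952873 on the minus strand.
Uhrf1: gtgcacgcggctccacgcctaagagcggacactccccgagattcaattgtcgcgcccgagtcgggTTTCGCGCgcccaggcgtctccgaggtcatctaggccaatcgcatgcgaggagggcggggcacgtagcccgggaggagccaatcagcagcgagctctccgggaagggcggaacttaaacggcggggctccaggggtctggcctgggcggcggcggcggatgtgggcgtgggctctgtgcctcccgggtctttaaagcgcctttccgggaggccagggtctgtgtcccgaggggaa
Dnmt1: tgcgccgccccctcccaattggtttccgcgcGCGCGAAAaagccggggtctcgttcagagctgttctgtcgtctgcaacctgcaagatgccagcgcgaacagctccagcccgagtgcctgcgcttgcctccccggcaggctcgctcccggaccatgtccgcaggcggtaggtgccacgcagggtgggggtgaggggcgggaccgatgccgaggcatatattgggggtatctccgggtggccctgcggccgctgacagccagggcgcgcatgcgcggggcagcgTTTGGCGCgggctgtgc

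The letters searched were TTTCCCGC, TTTGGCGC, TTTCGCGC and TTTGCCGC on both strands, and 2.27% of 32841 promoter windows of the same length hold at least 1 of them. The Uhrf1 window holds TTTCGCGC once, and the Dnmt1 window holds TTTGGCGC once and TTTCGCGC once on the opposite strand (read as GCGCGAAA), with no overlap between them. The other start sites listed for Uhrf1 and Dnmt1, and those of Dnmt3a, Dnmt3b, Tet1, Tet2, Tet3 and Gadd45b, hold none of these letters in their windows. The cyclic AMP response element TGACGTCA was found in 0 of the 13 windows of these 8 genes, against 1.79% of all windows. By gene, the E2F letters occur in at least 1 window of 2.61% of 27018 genes. The windows shown hold 33 CpG each, where the median window holds 7, and windows of like CpG content were not compared. Those of Tet2 (57 CpG) and Dnmt3a (up to 47) hold more.

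None of the 3 methyltransferase genes passed the test for any drug. Dnmt1, the maintenance enzyme, had log2 values of 9.87 and 9.80 on the mirtazapine arrays, against 10.11 and 10.02 on the control arrays. Both mirtazapine arrays were thus below both control arrays, but the difference of −0.23 ± 0.091 (SE; 95% interval −0.433 to −0.027) did not pass over all genes (limma adjusted p = 0.188), and it was −0.12 when the deposited values were quantile normalized again. Under mirtazapine 30.6% of all genes had both drug arrays below both control arrays.

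Under the other drugs Dnmt1 lay between 9.87 and 10.06. Its differences from control were −0.075 for amitriptyline, −0.065 for citalopram, −0.12 for duloxetine and −0.095 for imipramine, with adjusted p from 0.595 to 1. Dnmt1 correlated with the mean of the S phase genes at r = 0.798 over the 12 arrays, 0.699 over 10 arrays and 0.728 after subtraction of each group's mean. The last value was not particular to Dnmt1, as it was higher for Tet2 (0.904), Mbd1 (0.796) and Tet1 (0.779). It was lower for the rest of the 10 genes. The duloxetine replicates, of which replicate 2 stands apart, lay furthest apart for both Dnmt1 and the S phase mean.

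Dnmt3a, the de novo enzyme that is prominent in neurons, had its highest values on 1 amitriptyline and 1 citalopram array. It was at 8.52 and 8.77 under amitriptyline, 8.59 and 8.78 under citalopram, 8.60 and 8.60 under duloxetine, 8.53 and 8.57 under imipramine and 8.64 and 8.61 under mirtazapine, against 8.53 and 8.57 in control. The replicates of amitriptyline differed by 0.25, more than any 2 group means (0.135). Its differences from control ran from 0 under imipramine to 0.135 under citalopram (95% interval −0.097 to 0.367), and none passed.

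Dnmt3b, the other de novo enzyme, showed the widest gap between control arrays among the methyltransferases. It was at 6.93 and 7.02 under mirtazapine, against 6.45 and 6.99 in control, so 1 control array lay between the mirtazapine arrays and the other far below. The difference was 0.255 ± 0.151 (SE; 95% interval −0.081 to 0.591; limma adjusted p = 0.316), and without control replicate 1 it was −0.015. Its values on the other 8 drug arrays lay between 6.73 and 6.92, all inside the range of the control arrays.

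The Tet genes differed from control by less than their intervals under every drug. Tet1 was at 8.60 and 8.41 under mirtazapine, against 8.71 and 8.71 in control (difference −0.205 ± 0.097 SE, 95% interval −0.422 to 0.012, limma adjusted p = 0.241). The lower value came from the mirtazapine array that stands apart, and without it the difference was −0.11. On the other 8 drug arrays Tet1 lay between 8.55 and 8.74, and 6 of them were below both control arrays.

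Tet2 had its lowest values on both arrays that stand apart. It was at 9.67 and 9.52 under duloxetine and at 9.78 and 9.51 under mirtazapine, against 9.89 and 9.72 in control. The differences were −0.21 (95% interval −0.471 to 0.051, limma adjusted p = 0.525) and −0.16 (−0.421 to 0.101, adjusted p = 0.4) for the 2 drugs, and between −0.11 and −0.02 for the other drugs. Without both arrays that stand apart they were −0.135 for duloxetine and −0.025 for mirtazapine.

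Tet3 was at 9.91 and 10.07 under citalopram, against 9.92 and 9.90 in control (difference 0.08, 95% interval −0.141 to 0.301). It lay at 9.79 and 9.77 under duloxetine, below both control arrays as for 18.3% of all genes, with a difference of −0.13 (−0.351 to 0.091). Amitriptyline (9.74 and 9.86) and imipramine (9.71 and 9.89) shared a mean of 9.80, a difference of −0.11 from control for each. Mirtazapine (9.97 and 9.87) was at 0.01 from control.

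The readers Mbd1 and Mbd2 did not pass for any drug. Mbd1 lay between 9.39 and 9.57 on 9 of the 10 drug arrays and at 9.18 on duloxetine replicate 2, which stands apart, against 9.60 and 9.40 on the control arrays. Its differences from control ran from −0.13 under duloxetine (95% interval −0.416 to 0.156) to 0.035 under both amitriptyline and imipramine. Without duloxetine replicate 2 the duloxetine difference was 0.06, and it ran from −0.32 to 0.06 over the arrays left out. Mbd2 had its highest values under duloxetine, at 8.97 and 8.88, against 8.74 and 8.83 in control, a difference of 0.14 (−0.056 to 0.336, limma adjusted p = 0.546). Both duloxetine arrays were above both control arrays, as for 15.5% of all genes. On 7 of the 10 drug arrays Mbd2 was above both control arrays and on the other 3 between them, and its differences were positive for all 5 drugs (0.01 to 0.14) all short of the threshold.

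Gadd45b varied most of the 10 genes, and its 2 control arrays lay 0.77 apart. It was at 7.22 and 7.37 under duloxetine, against 8.23 and 7.46 in control. Both duloxetine arrays were below both control arrays, as for 18.3% of all genes, and the difference was −0.55 ± 0.206 (SE; 95% interval −1.01 to −0.09), which did not pass over all genes (limma adjusted p = 0.492, unadjusted p = 0.0237). The difference was −0.165 without control replicate 1 and −0.935 without control replicate 2, so its size was set by which control array was used.

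All 8 arrays of the other drugs lay between the control arrays. Gadd45b was at 7.68 and 7.70 under amitriptyline, 7.71 and 7.51 under citalopram, 7.83 and 7.78 under imipramine and 7.79 and 8.05 under mirtazapine. Ordered by mean it ran from mirtazapine (7.92) through control (7.845), imipramine (7.805), amitriptyline (7.69) and citalopram (7.61) to duloxetine (7.295), and each step was smaller than the 95% half-width of a difference (0.46).

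Gadd45b is itself an early response gene, and over the 12 arrays it ran with the mean of the immediate early genes. Its correlation with the mean of 18 such genes was 0.91 over the 12 arrays, 0.881 over 10 arrays and 0.878 after each group's mean was subtracted. The control arrays weighed most in the last value, as they lay 0.77 apart for Gadd45b, against 0.26 at most in a drug group. Between the replicates of amitriptyline and of citalopram, Gadd45b and the list mean went opposite ways. Under duloxetine 17 of these 18 genes were below control (median −0.262, 0 called), and the list mean was 0.148 above the control mean on control replicate 1 and as far below it on control replicate 2. Fos, the activity-induced transcription factor gene whose pattern was most like that of Gadd45b (r = 0.951), was at 7.13 and 7.12 under duloxetine, against 8.45 and 7.50 in control.

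Set side by side, 0 of the 10 genes were called under amitriptyline, citalopram and duloxetine, where 0% of all genes were called, and 0 under imipramine, where 0.0286% were. At an unadjusted p under 0.05, 1 of the 10 was below the threshold under each of these drugs (Uhrf1, and Gadd45b for duloxetine), where 6.14% of all genes were under amitriptyline, 4.44% under citalopram, 10% under duloxetine and 4.56% under imipramine. Under mirtazapine it was 2 of 10, Uhrf1 and Dnmt1, and 22.4% of all genes. The median log2 difference of the 10 genes was −0.048 for amitriptyline, −0.018 for citalopram, −0.125 for duloxetine, −0.03 for imipramine and −0.013 for mirtazapine, and the median over all genes lay between −0.035 and −0.005. These comparisons share the same 2 control arrays.

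Apart from Uhrf1 and Gadd45b, the 8 genes gave 40 drug-control differences between −0.23 and 0.255. The 95% half-width of a difference ran from 0.196 for Mbd2 to 0.336 for Dnmt3b, which is the precision that 2 arrays a group gave for each gene. The F tests called 0 of the 10 genes across the 6 groups, where 0.103% of all genes were called, and 0 across the 5 drugs, where 0.0115% were. At an unadjusted p under 0.05 each F test held 1 of the 10, against 10.8% of all genes across the 6 groups and 9.76% across the 5 drugs. Uhrf1 came nearest among the 6 groups (adjusted p = 0.153).

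**Figure D3:**
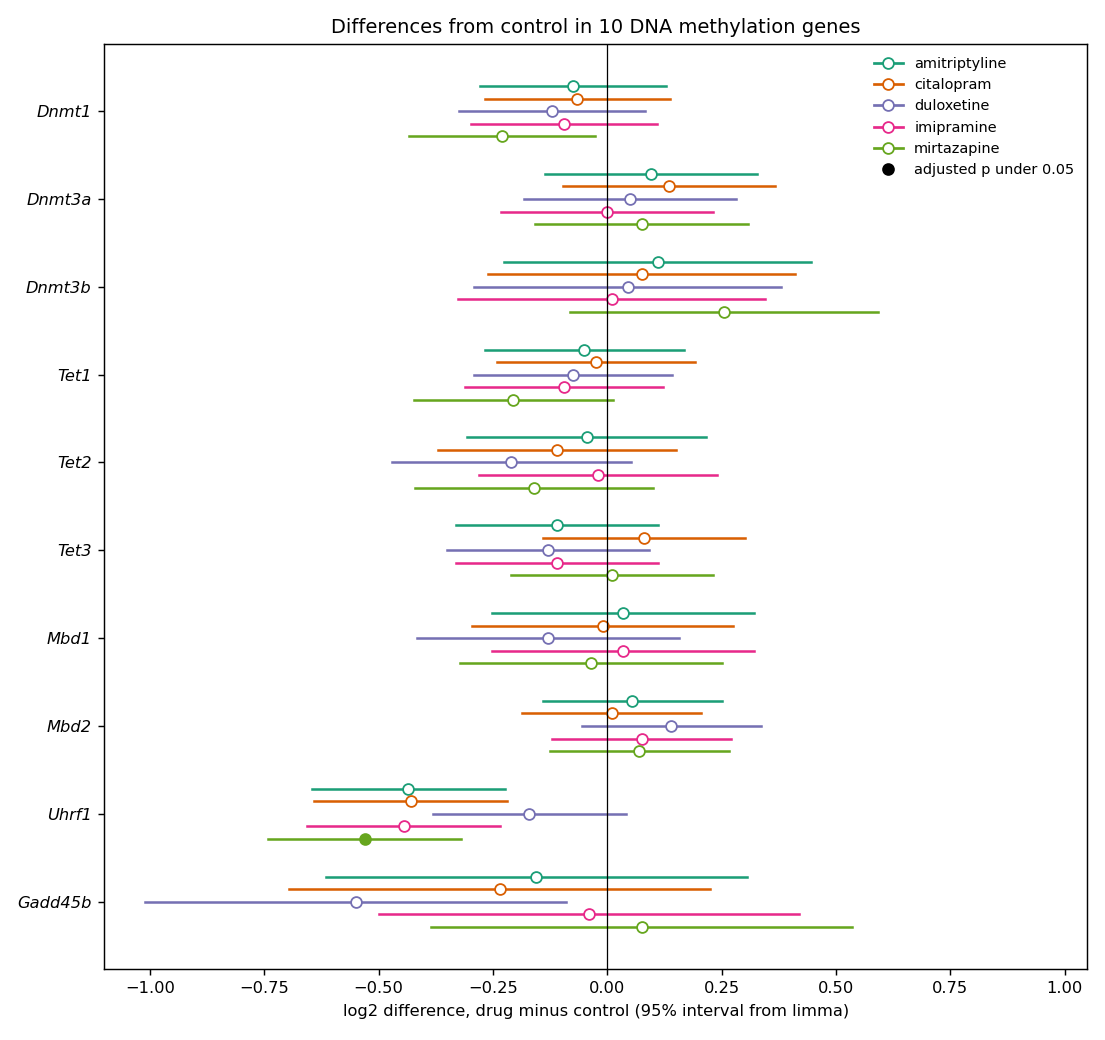
Points give the log2 difference of each drug minus control for each gene, lines the 95% interval from limma (2 arrays a group, spread estimated over all 12 arrays), and a filled point an adjusted p under 0.05 over all genes. The 1 filled point is Uhrf1 under mirtazapine, at −0.53; the Uhrf1 intervals of amitriptyline, citalopram and imipramine also lie below 0.

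Amitriptyline and imipramine could be compared at a matched dose and time, 5 µM for 48 h. Both are tricyclics with the same dimethylaminopropyl type of side chain, and amitriptyline carries a carbon in the central ring where imipramine carries nitrogen. This was the 1 pair of drugs with matched doses. None of the 10 genes was called between them (adjusted p of 1 for each), nor was any of the genes tested (0%), and at an unadjusted p under 0.05 there were 0 of the 10 genes and 1.21% of all genes. The difference for Uhrf1, amitriptyline minus imipramine, was 0.01 with a 95% interval of −0.201 to 0.221. The widest interval was that of Gadd45b, −0.575 to 0.345 around −0.115, and a difference within these intervals could not be detected.

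Further genes of the pathway were examined as a list of 49, of which 39 could be tested. They covered other readers, base excision repair, the methyl donor cycle and partners of the 10 genes. None passed for any drug or in any other comparison made. Under mirtazapine 30 of 39 were below control and 9 above (median −0.10, against −0.035 over all genes), and under citalopram 19 were below and 19 above (median 0). The other medians were −0.025 for amitriptyline, −0.085 for duloxetine and −0.015 for imipramine.

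Hells, a chromatin remodeller needed for DNA methylation at repeats, had the lowest p of the list under mirtazapine. It was at 6.34 and 6.35 under mirtazapine, against 7.33 and 6.92 in control (log2 difference −0.78 ± 0.203 SE, limma adjusted p = 0.0893). Its differences for the other drugs were −0.535 for amitriptyline, −0.43 for citalopram, −0.50 for duloxetine and −0.275 for imipramine. Ahcy, which clears the S-adenosylhomocysteine left by methyl transfer, followed with −0.525 under mirtazapine (adjusted p = 0.122) and had the lowest p under duloxetine (−0.56, adjusted p = 0.492). Trdmt1, which encodes a transfer RNA methyltransferase related to the DNA enzymes, came next under mirtazapine (−0.68, adjusted p = 0.136). It was at 7.88 and 7.10 there, against 8.24 and 8.10 in control, and the lower value came from the mirtazapine array that stands apart. Under duloxetine the lower values of Hells (6.88 and 6.37) and Ahcy (8.49 and 7.99) also came from replicate 2, which stands apart.

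Gadd45g, a relative of Gadd45b, was below both control arrays on every drug array, which held for 3.67% of all genes tested. It lay between 7.40 and 7.70 on the 10 drug arrays, against 7.96 and 7.79 in control. Its log2 difference was −0.40 for amitriptyline (limma adjusted p = 0.354), −0.345 for citalopram (0.833), −0.37 for duloxetine (0.492) and −0.315 for imipramine (0.824), and −0.351 for the mean of the drugs (0.193). Under mirtazapine the Gadd45g difference was −0.325. Cxxc5, a CXXC zinc finger gene, had −0.205 under amitriptyline, −0.275 under citalopram and −0.165 under imipramine. The remaining genes among the 3 of lowest p for a drug were the deacetylase gene Hdac1 under citalopram (−0.32), the histone demethylase gene Kdm2a under duloxetine (0.22) and the methionine synthase gene Mtr under imipramine (0.265).

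**Figure D4:**
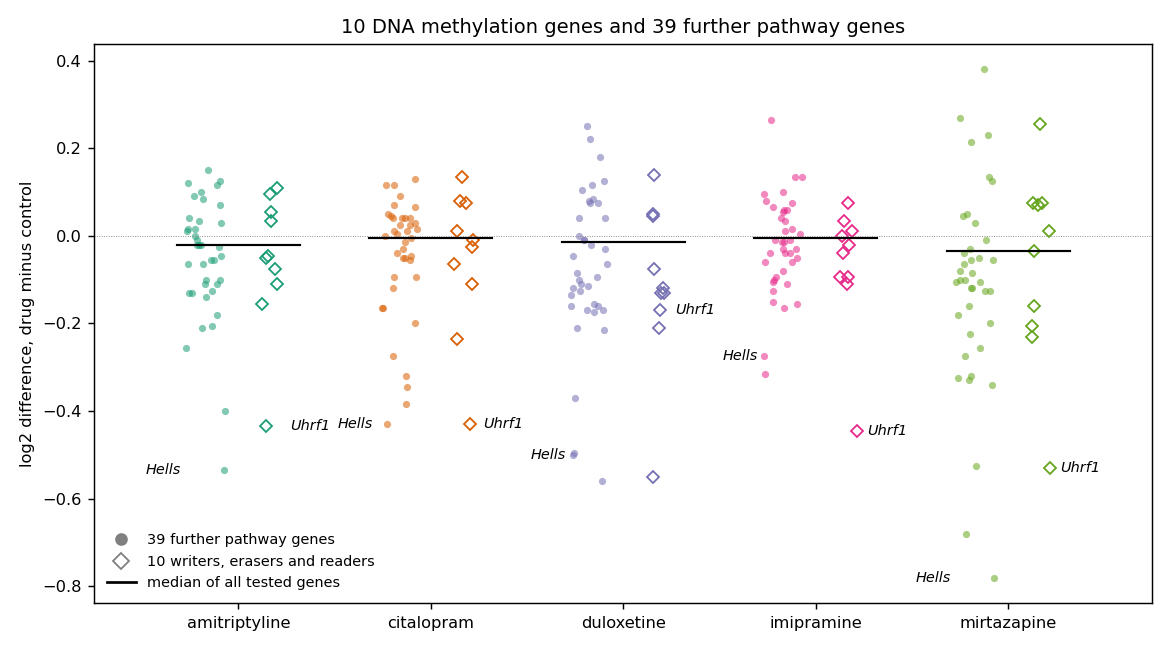
Log2 differences of each drug minus control are shown as dots for 39 further pathway genes and as diamonds for the 10 writers, erasers and readers, with a black bar at the median of all genes tested. Uhrf1 lies among the lowest diamonds under each drug, and Hells is the lowest dot under amitriptyline (−0.535), citalopram (−0.43) and mirtazapine (−0.78).

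The genes whose pattern was most like each of the 10 were taken as the 3 with the highest Pearson correlation over the 12 arrays. For Uhrf1 these were Smpdl3a (r = 0.956), Pdk4 (0.946) and Mbp (0.945), and over the 10 arrays without both that stand apart they had r of 0.95, 0.962 and 0.947. For Gadd45b they were Fos (0.951), Arid5a (0.933) and Nr4a1 (0.926). For Dnmt1 the first was Incenp (0.955), which encodes a protein of the chromosomal passenger complex in mitosis, and this gene was also among the 3 for Tet1 (0.95). Among the 10 genes themselves Dnmt1 and Tet1 were the most alike, at r = 0.907 over 12 arrays and 0.829 over 10. The next pair, Tet2 and Mbd1, fell to r = 0.242 over 10 arrays, against 0.702 over 12, and both genes had low values on an array that stands apart. Uhrf1 and Dnmt1 had r = 0.428 over 12 arrays and 0.663 over 10.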

How the data were processed

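RNA of 12 samples was hybridised to Affymetrix whole-transcript arrays. The authors' deposited log2 values, which have 2 decimals, came from RMA in Affymetrix Expression Console according to the submitters' processing notes. No version, setting or build is stated there. Groups and replicate numbers come from the titles. Of 41345 probe sets, 23521 had 1 gene symbol in the platform annotation, 1814 several and 16010 none. A gene was its probe set of highest mean, tested where that mean was at or above log2 5.72, the 30th percentile over all probe sets.

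All 12 arrays entered 1 limma 3.58.1 model (R 4.3.3; lmFit, eBayes; 6 residual and 3.86 prior degrees of freedom). Tests were two-sided, with Benjamini-Hochberg adjustment over 17467 genes and calls under 0.05. The model was tested on simulated data. Alternatives changed the filter, probe set choice, moderation, array weights, normalization, replicate block and arrays included. Named genes are the 10, and of a list of 49 pathway genes those called in any comparison plus the 3 of lowest p for each drug. The members and lists were chosen with earlier results of these data known. Of the 49, Bhmt and Dppa3 lay below the filter, and 8 were not analysed here. RMA values carry no counts, so the number of arrays limits the precision. Promoter windows are RefSeq's (GRCm38.p6), with 13 windows analysed for 8 of the 10 genes. Those of Mbd1 and Mbd2 were not analysed here. Plots used Python 3.11.15 with matplotlib 3.10.9.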

Additional observations from a re-analysis of the deposited data

How the results depend on the processing

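Each comparison was repeated under up to 21 other settings, and 168 of 186 counts of called genes among the 10 did not move. Uhrf1 accounts for every count that moved. Under mirtazapine the count of 1 became 0 with every single-symbol probe set tested, with array weights and with only the arrays compared, and it ran from 0 to 1 when single arrays were left out. The count of 0 became 1 under amitriptyline with array weights and without both arrays that stand apart, and under imipramine with array weights. For the mean of the 5 drugs the count of 0 became 1 with the 50th percentile filter, with array weights and without both arrays that stand apart, and ran from 0 to 1 when single arrays were left out (1 without duloxetine replicate 1 or 2). The cause was not tested. No called difference changed sign. Of 1460 differences, 68, none of them called, changed sign or moved to or from 0. With the replicate number as a replicate block, Uhrf1 stayed called under mirtazapine (adjusted p = 0.0445, count 1) and the counts in the other comparisons were 0 as before; the deviations of same-numbered arrays correlated above 0.1 in 4 of 15 pairs of groups (−0.438 to 0.712), so the numbers were not taken as pairs. Of the 30 genes named as most like one of the 10, 10 stayed among the first 3 over 10 arrays. With 2 arrays a group, small changes lie within the intervals.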

Other observations

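The 2 control arrays differed along with several lists that also ran with or against Gadd45b. Over the 12 arrays Gadd45b correlated at r = −0.656 with neuron markers, −0.647 with oligodendrocyte lineage markers and 0.571 with microglia markers, and after each group's mean was subtracted at −0.827, −0.796 and 0.84. The control arrays weighed most in the values after subtraction, as they lay 0.77 apart for Gadd45b. On control replicate 1, where Gadd45b was at 8.23, the mean of 12 neuron markers was 0.063 below the control mean, that of 9 oligodendrocyte markers 0.223 below it and that of 9 microglia markers 0.106 above it. On control replicate 2, where Gadd45b was at 7.46, each list lay as far on the other side. The duloxetine arrays, with the lowest Gadd45b, had oligodendrocyte means 0.271 and 0.325 above control, neuron means 0.046 above and 0.052 below, and microglia means 0.09 below and 0.113 above. The part of these markers in the values of Gadd45b was not tested.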
